A study of Mus musculus with 6 samples.

Results

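The clustered protocadherins were examined in mouse neural stem cells after knock-down of Mina53. The set comprised 55 of the 25996 genes in the table, every entry named as an alpha, beta or gamma protocadherin of the arrays on chromosome 18. They were 13 genes of the alpha cluster, 21 of the beta cluster and 21 of the gamma cluster. Total RNA was sequenced from 3 libraries of neural stem cells with a control short hairpin, shControl, labelled as wild type, and from 3 libraries with a hairpin against Mina53, shMina53. All 6 libraries came from cells kept under proliferation conditions. Mina53, gene symbol Riox2, encodes a JmjC-domain oxygenase. Loss of its protein was not measured here, and each group rests on 1 labelled hairpin with no rescue. The labels do not say whether the libraries of a group came from separate cultures, so the p-values measure only the spread between these libraries, which may be technical.

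Clustered protocadherins are transmembrane proteins of the cadherin superfamily that bind like molecules on facing membranes and give single neurons a surface identity. A neuron transcribes a few alternate isoforms, chosen largely at random by promoter looping through CTCF and cohesin to distant enhancers and restricted by promoter methylation, whereas the C-type isoforms are expressed more broadly. In the alpha and gamma clusters each gene name stands for 1 variable first exon with its own promoter, spliced to constant exons that all members of the cluster share and that encode the common cytoplasmic part. Beta genes have a single coding exon and no shared constant part. The proteins act in self-avoidance of dendrites, axon tiling, neuron survival and synapse formation.

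All 3 arrays lie on the plus strand of chromosome 18 (mm10). The alpha genes span 36930184 to 37187661, the beta genes 37294812 to 37524479 and the gamma genes 37661793 to 37841873. In the GENCODE M21 annotation each alpha gene shares between 2860 and 3198 exon bases with other genes on the same strand, and each gamma gene between 2116 and 3157. Beta genes share none, except 455 bases common to Pcdhb21 and Pcdhb22. How the authors assigned reads from the shared exons is not given in the sources used here, so alpha and gamma values may hold reads from the constant exons. Beta values can be read gene by gene, apart from these 455 bases and from overlaps with antisense genes. Between 0% and 11.7% of the windows of 100 bases in an alpha gene's own exons also occurred in another gene, against at most 2.24% for beta genes and at most 9.80% for gamma genes. Values of such near copies may be split between paralogs.

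Values are scaled counts, that is, read counts divided by 1 factor per library. Libraries held 13753857 to 16811085 reads, of which 7259 to 11498 fell on the clustered protocadherins. The targeted gene matched the labels. Riox2 was at 290.4, 333 and 307 scaled counts in the shControl libraries and at 121, 125 and 121 in the shMina53 libraries, a log2 fold change of -1.34 (SE 0.146; limma adjusted p = 9.1e-05). Defining neural stem cell markers were present in both groups, with Nes at a mean of 7520 in shControl and 7386 in shMina53 and Sox2 at 7743 and 5334. Sox2 fell (log2 fold change -0.54, limma adjusted p = 0.00602). Across all 21500 genes tested with limma, with a threshold of 0.05 on the adjusted p, 8.26% passed, 3.79% as higher and 4.47% as lower in shMina53, and 23.6% had an unadjusted p under 0.05 in either direction. The median log2 fold change of all genes tested was 0.02.

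One control library stood apart for these genes. In shControl 3 the alpha genes summed to 47.8% of the mean of the other control libraries and the gamma genes to 58.3%, against 90.8% for the beta genes. Of the 55 genes, 36 had their lowest value of all 6 libraries in shControl 3, including 19 of 21 gamma genes. Over all genes tested the share with the lowest value there was 26.0%. The sums, medians and main members below are therefore also given without shControl 3.

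The clustered protocadherins leaned towards higher levels in shMina53, and 8 members rose. Of the 55 genes, 52 reached a mean of 1 scaled count and were tested. Pcdhac1, Pcdhb13, Pcdhb18, Pcdhb21, Pcdhga1, Pcdhga6, Pcdhga11 and Pcdhgc5 passed the threshold as higher, which is 15.4% of the tested members beside a background of 3.79%. edgeR called 8 members as higher (background 5.46%), and DESeq2 also called 8 (background 6.62%). No member passed as lower in limma, edgeR or DESeq2, and none had an unadjusted limma p under 0.05 in that direction. The log2 fold change was above 0 for 48 of the 52 members, beside 51.5% of all genes tested, and the median over members was 0.39. In 18 members every shMina53 library was above every shControl library, beside 14.9% of all genes tested (29.1% in either direction). An unadjusted limma p under 0.05 as higher was found for 18 members, beside 11.4%. These counts of members are not counts of independent observations. All members come from the same 6 libraries, and the 31 tested alpha and gamma members share exon bases within their cluster.

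Without shControl 3 the median over members fell to 0.21, and 37 members stayed above 0 against 15 below. Again 8 members passed, beside a background of 5.62%: 7 of the 8 named above and Pcdhb14 in place of Pcdhb13. The number of calls depended more on the other libraries. It was 15 without shControl 1, 3 without shControl 2, 2 without shMina53 1, 1 without shMina53 2 and 0 without shMina53 3, beside backgrounds of 6.46%, 1.51%, 1.85%, 1.05% and 1.05%. Pcdhac1 kept its call in 5 of the 6 fits that leave out 1 library. With the replicate number as a block 3 members passed (background 2.58%), with a trend on transcript length removed 9 (background 5.59%), and with limma without its trend and robust options 0 (background 0.0837%).

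**Figure D1:**
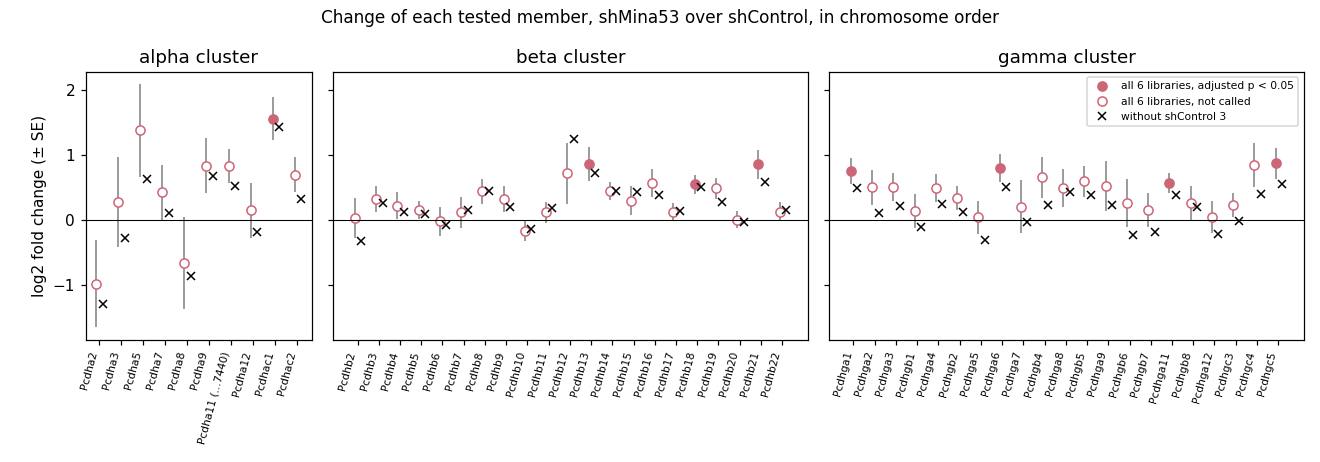
Log2 fold change (shMina53 over shControl, log2 of the scaled count plus 1) of the 52 tested members in their order along each cluster, with standard errors; filled circles passed an adjusted p of 0.05, open circles did not, and crosses leave out shControl 3. With all libraries, 48 points lie above 0, and without shControl 3 many alpha and gamma points move towards 0.

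The C-type isoforms gave the member with the largest rise. These 5 genes, Pcdhac1 and Pcdhac2 at the end of the alpha cluster and Pcdhgc3, Pcdhgc4 and Pcdhgc5 at the end of the gamma cluster, differ from the alternate isoforms in that many neurons express them constitutively. Of the 5, Pcdhac1 and Pcdhgc5 rose, beside 3.79% of all genes tested, and 3 did not pass. Their median log2 fold change was 0.85 with all libraries and 0.40 without shControl 3. None of the windows of 100 bases in their own exons occurred in another gene.

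Pcdhac1 (ENSMUSG00000103255, 37090013 to 37187657) stood at 17.0, 11.4 and 10.3 scaled counts in the shControl libraries and at 43.5, 33.2 and 41.8 in the shMina53 libraries. Every shMina53 library was well above every shControl library. The mean went from 12.9 ± 3.56 to 39.5 ± 5.51 (SD, n = 3), 3.06-fold, on 41 and 114 reads in all. This corresponds to a log2 fold change of 1.56 (SE 0.329; limma adjusted p = 0.00809), or 1.43 without shControl 3. Of the fits that leave out 1 library, only the one without shMina53 3 lost the call (adjusted p = 0.0615). It was also lost in limma without trend and robust (adjusted p = 0.0791).

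Pcdhgc5 (ENSMUSG00000102543, 37819513 to 37841873), which lies last in the gamma cluster, was at 202, 181 and 96.8 in shControl and at 311, 304 and 233 in shMina53. Even the highest control was below the lowest shMina53 library, and shControl 3 was far below the other controls. Its log2 fold change was 0.87 (SE 0.238; limma adjusted p = 0.0403), and without shControl 3 it was 0.55 (adjusted p = 0.0103). The call was lost without shControl 2 or without any 1 of the shMina53 libraries (adjusted p 0.0623 to 0.144).

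Pcdhgc4, the gamma isoform known to be needed for the survival of neurons, had values of 225, 176 and 78.0 in shControl and 249, 294 and 249.6 in shMina53. The groups did not overlap, but the lowest control carried much of the difference, and the log2 fold change of 0.85 (SE 0.345) did not pass (limma adjusted p = 0.184). Without shControl 3 it was 0.40 (adjusted p = 0.0763).

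Pcdhac2, the isoform that serotonergic axons need to spread evenly over their targets, was at 323, 254 and 133 in shControl and at 384, 360.2 and 340.0 in shMina53. Its log2 fold change was 0.70 and did not pass (limma adjusted p = 0.151), and it was 0.33 without shControl 3 (adjusted p = 0.108). Without shControl 1, and so with 2 controls of which shControl 3 was 1, Pcdhac2 and Pcdhgc4 were both called.

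Pcdhgc3, which is known to bind Axin1 and to promote dendrite branching, was the most abundant member in every library. Its values were 4173, 3765 and 2370.1 in shControl and 4211, 4153 and 3461 in shMina53. Values overlapped, since shMina53 3 was below both shControl 1 and shControl 2. Pcdhgc3 had a log2 fold change of 0.23 (limma adjusted p = 0.491), and of -0.01 without shControl 3. It overlaps the antisense gene BC037039, whose mean was 31.5 in shControl and 38.4 in shMina53, over 1559 bases. The sources used here do not state strand-specific counting, so reads of such pairs cannot be told apart.

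**Figure D2:**
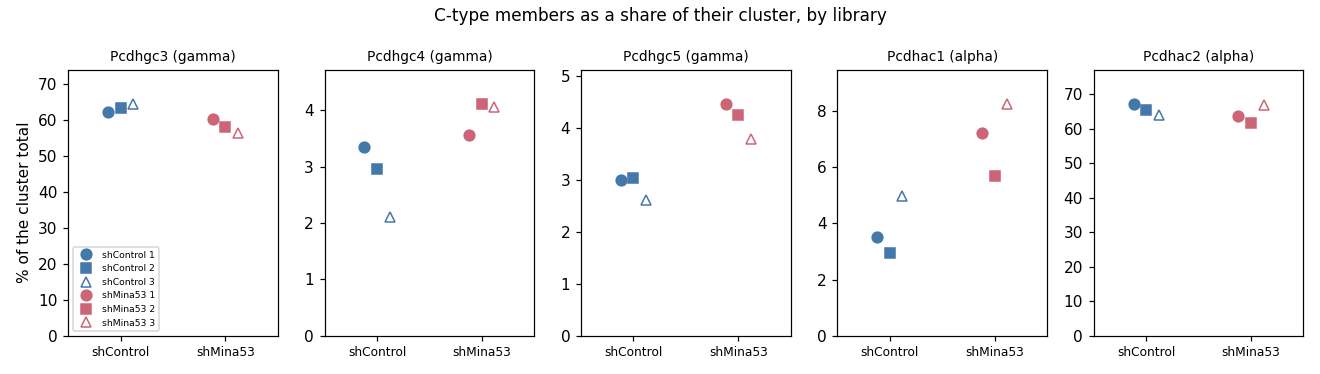
Share of each C-type isoform in the reads of its own cluster (percent) in each of the 6 libraries. Pcdhac1 and Pcdhgc5 take a larger share in every shMina53 library than in any shControl library, Pcdhgc3 a smaller one, and Pcdhac2 overlaps between groups.

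Shares within a cluster compare members inside 1 library, and so set aside the low total of shControl 3. Pcdhac1 made up 3.52%, 2.93% and 4.95% of the alpha reads in the shControl libraries and 7.20%, 5.68% and 8.22% in the shMina53 libraries. Pcdhgc5 made up 3.01%, 3.05% and 2.62% of the gamma reads in shControl and 4.46%, 4.25% and 3.79% in shMina53. For both, every shMina53 share was above every shControl share, shControl 3 included. Pcdhgc4 had 3.36%, 2.97% and 2.12% in shControl and 3.57%, 4.11% and 4.06% in shMina53, again without overlap. The share of Pcdhgc3 was lower in shMina53, at 60.3%, 58.1% and 56.3%, than in shControl, at 62.2%, 63.4% and 64.3%. Shares of 1 cluster add up to 100%, so a larger share of some members goes with a smaller share of others. With 3 libraries against 3, an exact two-sided permutation test cannot go below p = 0.1, so no test was made of the shares.

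The alpha cluster was the lowest of the clusters, and most of its alternate isoforms rested on few reads. Per kilobase of exon, the summed level was 63.3 scaled counts in shControl and 99.5 in shMina53, against 702 and 830.1 for beta and 1016 and 1260 for gamma. Of 11 alternate alpha isoforms, 8 were tested and none passed, close to the backgrounds of 3.79% higher and 4.47% lower. Their median log2 fold change was 0.36 with all libraries and -0.04 without shControl 3. The 3 untested alpha members, Pcdha1, Pcdha6 and the entry ENSMUSG00000102206 named Pcdha11, had 2 reads or fewer in each group.

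Among alternate alpha isoforms the most abundant was the other entry named Pcdha11, ENSMUSG00000007440, which starts 117 bases from the gene that RefSeq (GRCm38.p6) names Pcdha10. Its values were 55.6, 69.6 and 32.9 in shControl and 96.7, 95.5 and 80.2 in shMina53. The groups did not overlap, and the log2 fold change of 0.83 just missed the threshold (limma adjusted p = 0.0563). Without shControl 3 it was 0.53 (adjusted p = 0.130). It passed without shControl 1, without shControl 2, without the filter on low values and after a length trend was removed.

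After it the most abundant were Pcdha7, at 27.3, 13.3 and 9.39 in shControl and 25.1, 25.9 and 13.6 in shMina53, and Pcdha9, at 15.1, 7.63 and 7.52 against 23.2, 19.7 and 12.4. Neither passed (log2 fold changes 0.43 and 0.84, limma adjusted p 0.586 and 0.242). All alternate alpha isoforms other than this Pcdha11 entry had at most 27.3 scaled counts in any library and overlapped between groups. The widest fitted values were 1.38 for Pcdha5, on 8 and 21 reads, and -0.97 for Pcdha2, on 25 and 10 reads in shControl and shMina53 (limma adjusted p 0.255 and 0.417). At this depth, changes of this size in these low alternate alpha isoforms could not be told from the spread between libraries. Alternate alpha isoforms are known to need other protocadherins as carriers to reach the cell surface.

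Taken as a sum, the alpha cluster held 483, 389.9 and 209 scaled counts in the control libraries, and the shMina53 libraries held 604, 584 and 508. All shMina53 sums were above all shControl sums. The ratio of the means, 566 ± 50.6 over 360.4 ± 139.5 (SD, n = 3), was 1.57, and it was 1.296 without shControl 3. Pcdhac2 alone held 64.0% to 67.0% of the alpha reads in shControl and 61.6% to 66.9% in shMina53, so the sum largely followed that isoform.

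**Figure D3:**
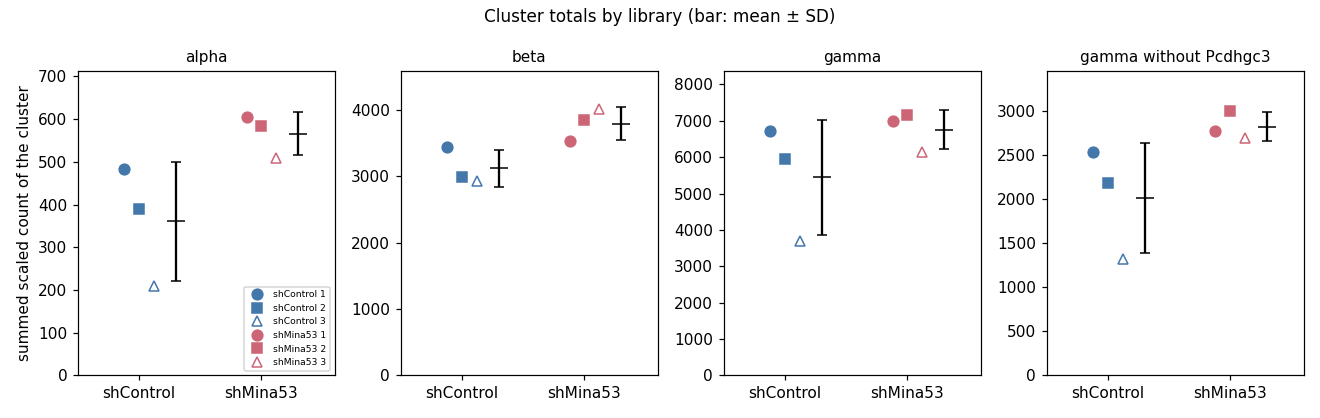
Summed scaled counts of the alpha, beta and gamma clusters and of the gamma cluster without Pcdhgc3 in each of the 6 libraries, with the mean and SD of each group. For alpha and gamma, shControl 3 lies far below the other controls, whereas the 3 beta control sums lie between 2924 and 3442.

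In the beta cluster 3 members rose, Pcdhb13, Pcdhb18 and Pcdhb21, and none fell, beside 3.79% and 4.47% of all genes tested. All 21 beta genes were tested, the log2 fold change was above 0 for 19 of them, and the median was 0.30, or 0.21 without shControl 3, when 17 remained above 0. Beta genes carry single-exon transcripts with cytoplasmic ends of their own, so their values do not depend on the counting of constant exons. Of the 3 that rose, Pcdhb21 still shares 455 exon bases with Pcdhb22. Beta was also the cluster in which shControl 3 differed least from the other controls. Beta sums were 3442, 2998 and 2924 in shControl and 3528, 3844 and 4011 in shMina53, a ratio of 1.22, or 1.18 without shControl 3.

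Pcdhb18 (ENSMUSG00000048347, 37489465 to 37494505) was at 181, 148 and 152 in shControl and at 247, 229 and 226 in shMina53. Both groups were narrow and did not overlap, and shControl 3 lay within the range of the other controls. The mean went from 160.3 ± 18.1 to 234 ± 11.6 (SD, n = 3), and the log2 fold change of 0.55 (SE 0.151; limma adjusted p = 0.0341) was 0.51 without shControl 3. The call was lost without shControl 2 or without any 1 of the shMina53 libraries (adjusted p 0.0994 to 0.141).

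Pcdhb21 (ENSMUSG00000044022, 37513621 to 37518325) was at 94.3, 87.7 and 51.7 in shControl and at 129.5, 154 and 129.9 in shMina53. All shMina53 libraries were above all controls, and shControl 3 was the lowest library. Its log2 fold change was 0.86 (SE 0.224; limma adjusted p = 0.0263), or 0.59 without shControl 3. The call was lost without shControl 2 or without any 1 of the shMina53 libraries (adjusted p 0.0522 to 0.135). Its neighbour Pcdhb22, which overlaps it by 455 exon bases, did not pass, with a log2 fold change of 0.13 (limma adjusted p = 0.645).

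Pcdhb13 (ENSMUSG00000047307, 37442500 to 37446209) was at 37.7, 33.4 and 26.3 in shControl and at 54.1, 56.0 and 68.9 in shMina53. The groups did not overlap, with a log2 fold change of 0.87 (SE 0.257; limma adjusted p = 0.0461). Of the leave-one-out fits, the one without shControl 1 kept this call, and the other 5 lost it (adjusted p 0.076 to 0.187; 0.73 and 0.076 without shControl 3). DESeq2 lost it too (adjusted p = 0.0595), whereas edgeR kept it (adjusted p = 0.0409).

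The 3 most abundant beta genes did not pass. Pcdhb19 was at 488, 388 and 286 in shControl and 487, 533 and 576 in shMina53, where shMina53 1 fell just below shControl 1 (log2 fold change 0.49, limma adjusted p = 0.0764, and 0.29 without shControl 3). Pcdhb14 was at 389, 302 and 341 in shControl and 400.2, 498 and 511 in shMina53 without overlap (log2 fold change 0.45, limma adjusted p = 0.0586), and it passed without shControl 3 (adjusted p = 0.018) and in DESeq2. Pcdhb20 was at 384, 324 and 328 in shControl and 335, 340.4 and 364 in shMina53, with all shMina53 values inside the control range (log2 fold change 0.01, limma adjusted p = 0.975). Its share of the beta reads was 11.2%, 10.8% and 11.2% in shControl and 9.51%, 8.86% and 9.07% in shMina53.

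The remaining beta genes gave log2 fold changes from -0.16 for Pcdhb10 to 0.72 for Pcdhb12. Pcdhb12 was the lowest beta gene, and its control values of 9.43, 6.67 and 25.4 overlapped the shMina53 values of 23.2, 12.5 and 28.2. Of the tested members it moved up most without shControl 3, to 1.24 (limma adjusted p = 0.0673). The antisense gene Gm37446, whose mean was 3.77 in shControl and 2.92 in shMina53, overlaps Pcdhb12 over 1927 bases. Reads of this pair cannot be told apart. Pcdhb10, at 162, 144 and 163 in shControl and 156, 132 and 132 in shMina53, and Pcdhb6 were the 2 beta genes below 0. Along the array, 7 beta genes had an unadjusted limma p under 0.05, namely Pcdhb8, Pcdhb13, Pcdhb14, Pcdhb16, Pcdhb18, Pcdhb19 and Pcdhb21. Of these 7, 6 lay at positions 12 to 20 of the 21 genes, a range chosen after the values were seen and given with no test.

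**Figure D4:**
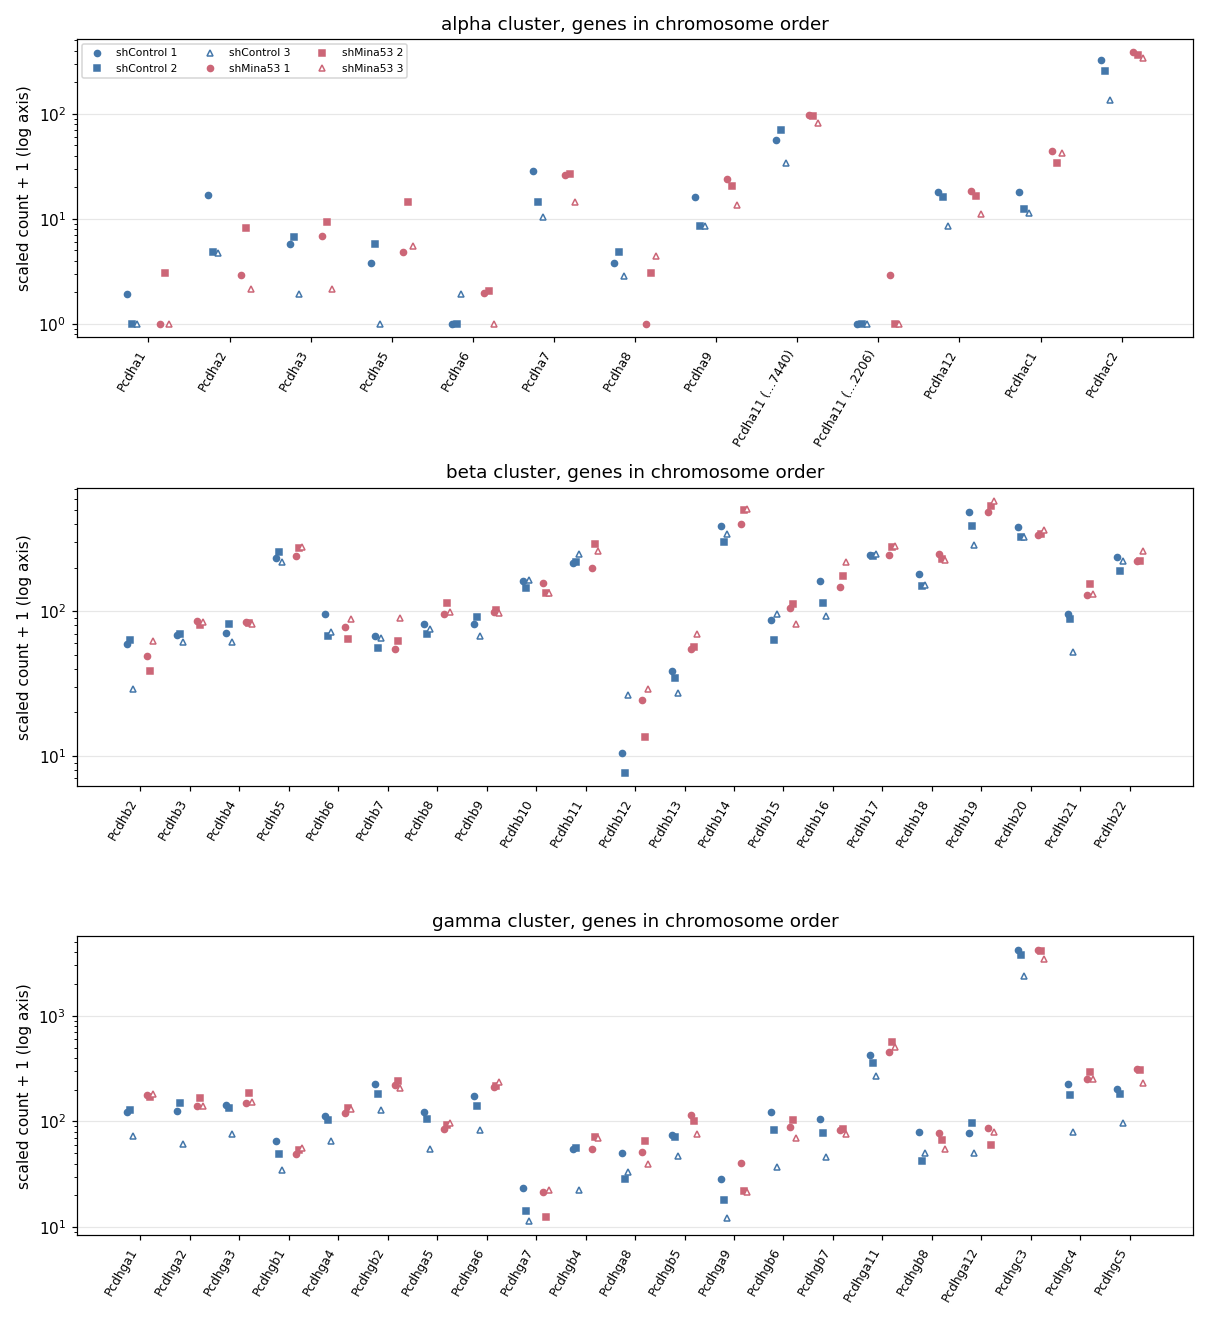
Scaled count plus 1 (log axis) of each clustered protocadherin in each of the 6 libraries, ordered along the alpha, beta and gamma clusters. Pcdhgc3 lies highest in every library, from 2370.1 to 4211 scaled counts, and the alternate alpha isoforms lie lowest.

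In the gamma cluster 4 of 21 members rose, beside 3.79% of all genes tested. They were the A-type isoforms Pcdhga1, Pcdhga6 and Pcdhga11 and the C-type Pcdhgc5 described above. All 21 gamma genes had a log2 fold change above 0, with a median of 0.49. Without shControl 3 the median was 0.22, with 14 above and 7 below 0. The A-type and B-type isoforms are the alternate gamma genes, interleaved along the array and differing in sequence subgroup. Of 11 A-type genes 3 passed, with a median of 0.50, or 0.23 without shControl 3. Of 7 B-type genes none passed, with a median of 0.26, or 0.13 without shControl 3. Among all genes tested 3.79% passed as higher, so 0 of 7 lies close to that background. The difference between the types was not tested.

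Pcdhga11 (ENSMUSG00000102742, 37755731 to 37841873), the most abundant alternate gamma gene, was at 421, 355 and 269 in shControl and at 456, 564 and 508 in shMina53. Again all shMina53 libraries were above all controls. Its log2 fold change was 0.57 (SE 0.155; limma adjusted p = 0.0327), or 0.39 without shControl 3. It was lost without shControl 2 or without any 1 of the shMina53 libraries (adjusted p 0.0525 to 0.170). The antisense gene Gm26672, which overlaps it by 1381 bases, had a mean of 12.9 in shControl and a lower one in shMina53, a log2 fold change of -0.07.

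Pcdhga6 (ENSMUSG00000103793, 37707039 to 37841873) was at 173, 138 and 82.7 in shControl and at 209.8, 215 and 237 in shMina53. The shMina53 libraries were close together and above all controls. For Pcdhga6 the log2 fold change was 0.81 (SE 0.217; limma adjusted p = 0.0314), or 0.51 without shControl 3. It was lost without shControl 2 or without any 1 of the shMina53 libraries (adjusted p 0.0744 to 0.159).

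Pcdhga1 (ENSMUSG00000103144, 37661793 to 37841873), the first gene of the array, was at 123, 127 and 72.3 in shControl and at 177, 171 and 182 in shMina53. No control reached the shMina53 libraries, whose SD was 5.30 around a mean of 177. Pcdhga1 had a log2 fold change of 0.76 (SE 0.204; limma adjusted p = 0.0304), or of 0.50 without shControl 3. Its call was lost without any 1 of the shMina53 libraries (adjusted p 0.089 to 0.141). The antisense gene Gm37118 overlaps it by 406 bases.

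The most abundant B-type gene, Pcdhgb2, was at 224, 182 and 129 in shControl and at 221, 241 and 204 in shMina53, with overlap (log2 fold change 0.35, limma adjusted p = 0.269, and 0.13 without shControl 3). Pcdhgb6 was at 121, 82.9 and 35.7 in shControl and at 88.0, 103 and 68.9 in shMina53, and its log2 fold change turned from 0.26 to -0.23 when shControl 3 was left out. Pcdhgb5, at 73.5, 70.5 and 46.0 in shControl and 113, 101 and 74.5 in shMina53, was the B-type gene whose groups did not overlap (log2 fold change 0.60, limma adjusted p = 0.130, and 0.39 without shControl 3).

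Gamma sums were 6710.5, 5942 and 3686 in the control libraries, against 6984, 7151 and 6147 scaled counts in the shMina53 libraries. They overlapped, and the ratio of 1.24 became 1.07 without shControl 3. With Pcdhgc3 left out, the other 20 gamma genes summed to 2537, 2177 and 1316 in shControl and to 2773, 2999 and 2686 in shMina53. These sums did not overlap, and their ratio was 1.40, or 1.20 without shControl 3. Per kilobase of exon, Pcdhgc3 was at 625 in shControl and 717 in shMina53, above Pcdhga11 at 73.2 and 107, Pcdhb20 at 97.0 and 97.4 and Pcdhac2 at 40.3 and 61.4. With the same counts divided only by exon bases that no other gene shares, the summed levels were 129 and 202 for alpha, 706 and 836 for beta, and 1729 and 2152 for gamma. Only the length changed, and reads were not restricted to these bases.

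None of the other genes tested in and beside the arrays passed, beside 8.26% of all genes tested. Of 15 further genes annotated within the clusters, 11 were tested. The non-coding gene 3222401L13Rik, which lies close to the first gamma gene, was at 57.5, 62.9 and 40.4 in shControl and at 78.3, 90.3 and 85.8 in shMina53, without overlap and with a log2 fold change of 0.67 (limma adjusted p = 0.0786). It was singled out after its values were seen, as was Taf7, a general transcription factor gene between the beta and gamma arrays, with a log2 fold change of 0.07. Of the 11 tested within the clusters 1 had an unadjusted p under 0.05, beside 23.6% of all genes tested, and edgeR called 0. Of 10 genes flanking the arrays 0 passed in limma and 0 in edgeR, 4 had an unadjusted p under 0.05, beside 23.6%, and 2 had a log2 fold change above 0, beside 51.5%.

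No gene known to set promoter choice and the folding of these arrays passed with all libraries. The list held 28 genes for CTCF, cohesin and its loaders, DNA methylation and silencing chromatin. All were tested, and 0 passed in limma, beside 8.26% of all genes tested, and 0 in edgeR or DESeq2. An unadjusted limma p under 0.05 was found for 6, a share close to the background of 23.6%. Their median log2 fold change was 0.03, or -0.02 without shControl 3. Leaving out shControl 3 gave calls for Tet1 and Cbx1, both lower (limma adjusted p 0.00043 and 0.0469). Without shControl 1, Tet2 and Tet3 were called higher (limma adjusted p 0.00531 and 0.0458), beside 6.46% of all genes in that fit. Ctcf, the factor that binds the promoters and enhancers of the clusters, was at 1987, 1834 and 1983 in shControl and at 1828, 1969 and 1969.9 in shMina53. These values overlapped. Smchd1, a structural protein known to silence clustered protocadherins, had a log2 fold change of 0.22 and Dnmt3b, which methylates their promoters, of -0.05 (limma adjusted p 0.295 and 0.942).

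Among the relatives were 12 non-clustered protocadherins, adhesion genes scattered over the genome that each have a promoter of their own. They gave 0 calls in limma, beside 8.26% of all genes tested, 0 in edgeR and 2 in DESeq2. Among all genes, edgeR called 5.46% and DESeq2 6.62% as higher, whereas the counts for this list take either direction. The log2 fold change was above 0 for 9 of them, beside 51.5% of all genes tested, and 6 had an unadjusted p under 0.05, beside 23.6%. Their median was 0.29, or 0.19 without shControl 3, when 8 were above 0 and Pcdh7 passed as higher and Pcdh15 as lower. Without shControl 1, 5 passed as higher, Pcdh7, Pcdh9, Pcdh10, Pcdh17 and Pcdh19, beside 6.46% of all genes in that fit. Their summed level was 13319, 11494 and 9478 in shControl and 13330, 13279 and 13186 in shMina53, again with the lowest value in shControl 3. Of 11 tested classical cadherins and catenins, the adhesion proteins and their cytoplasmic anchors, 4 rose and none fell, beside backgrounds of 3.79% and 4.47%. In either direction edgeR called 5 and DESeq2 7. The edgeR and DESeq2 shares of all genes given above count higher calls only, so they are not a like background. The catenins Ctnnd1 (log2 fold change -0.44) and Ctnna2 (-0.37) just missed as lower (limma adjusted p 0.0502 and 0.0605), and edgeR called Ctnnd1 (adjusted p = 0.0456). Ctnnd2 (0.39) just missed as higher (limma adjusted p = 0.0574). Cdh20 went from 1524 ± 43.7 to 2624 ± 159 (SD, n = 3), a log2 fold change of 0.78 (limma adjusted p = 0.000389) that passed in every leave-one-out fit. Cdh6, Cdh11 and Cdh2, the neural N-cadherin, rose by log2 fold changes of 0.52, 0.43 and 0.38. Leaving out shControl 2, shMina53 2 or shMina53 3 ended the call of Cdh6 (adjusted p 0.0596 to 0.0685), and leaving out shControl 2 or any 1 of the shMina53 libraries ended those of Cdh11 and Cdh2 (adjusted p 0.069 to 0.154).

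Of 23 genes for proteins that process clustered protocadherins or carry their signals, 2 rose and 2 fell, beside 3.79% and 4.47% of all genes tested. Adam10, the protease that sheds their extracellular part, rose (log2 fold change 0.44, limma adjusted p = 0.0166), as did Wasf3, of the WAVE family that links them to actin (0.43, limma adjusted p = 0.0294). Wasf2, of the same family, fell (-0.42, limma adjusted p = 0.0282), and so did Aph1a, a subunit of the gamma-secretase that cuts them in the membrane (-0.39, limma adjusted p = 0.0344). All 4 calls were lost without shControl 2, shMina53 2 or shMina53 3 (adjusted p 0.088 to 0.179), and those of Wasf2 and Wasf3 also without shMina53 1 (0.0904 and 0.0724). A replicate block ended those of Wasf3 and Aph1a (adjusted p 0.0555 and 0.0635).

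Markers of the cell types that such cultures can hold moved with the groups too, and their counts stand beside 3.79% higher and 4.47% lower among all genes tested. Of 11 tested neuronal markers 1 rose, Map2 (log2 fold change 0.37), and 2 fell, Tubb3 (-0.53) and Gad1 (-0.54). Their summed level was 12022 to 14700 in shControl and 15028 to 16046 in shMina53, most of it Map2. The calls of Map2 and Tubb3 were lost with the length trend removed (limma adjusted p 0.225 and 0.216) and with a replicate block (0.0676 and 0.0627). Map2 also lost its call without shControl 2 or any 1 of the shMina53 libraries (0.0974 to 0.204), Gad1 without shMina53 1 or shMina53 2 (0.0607 and 0.068), and Tubb3 in every leave-one-out fit but the one without shControl 3 (0.0545 to 0.139).

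Of 8 astrocyte markers 4 rose, Gja1 (0.84), Aqp4 (0.71), Gjb6 (1.05) and Slc1a3 (0.43), and none fell, with sums of 60419 to 63882 and 78867 to 79473. Of 10 neural stem cell markers 1 rose, Nr2e1 (0.64), and 3 fell, Hes5 (-0.88), Sox2 (-0.54) and Vim (-0.42), with sums of 103305 to 124435 and 87306 to 92649. Of 8 oligodendrocyte lineage markers none rose and 5 fell, among them Sox10 (-1.21), Pdgfra (-0.79), Gpr17 (-1.06) and Cldn11 (-1.13), with sums of 6745 to 9394 and 4955 to 5982. Of 4 tested ependymal markers 1 rose, Foxj1 (0.83), with sums of 235 to 263 and 356 to 475. The other 3, Ccdc153 (1.54), Rarres2 (-0.76) and Dynlrb2 (0.46), did not pass, and their group means did not exceed 9.42 scaled counts. Most of the ependymal sum was Foxj1, and most of the astrocyte sum was Slc1a3. Vim and Fabp7 made up most of the stem cell sum, and Gpr17 and Cspg4 most of the oligodendrocyte lineage sum. Gja1, Aqp4, Hes5, Sox10, Pdgfra, Gpr17, Cldn11 and Foxj1 kept their calls in every leave-one-out fit. Sox2 and Nr2e1 lost theirs without shMina53 3 (limma adjusted p 0.0606 and 0.0835), and Gjb6 without shControl 2, shMina53 2 or shMina53 3 (0.0528 to 0.0728). For Slc1a3 and Vim, leaving out shControl 2 or any 1 of the shMina53 libraries ended the call (0.0618 to 0.179).

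Markers of other tissues were low, and none of those tested passed. The summed levels in shControl and shMina53 were 1.89 to 4.77 and 3.11 to 5.80 for 2 microglial markers, and 82.7 to 116.9 and 106 to 123 for 3 endothelial markers. For 6 fibroblast and mural markers they were 41.9 to 59.2 and 63.3 to 87.2, for 4 choroid plexus markers 33.0 to 46.7 and 37.3 to 48.3, and for Omp and Tph2 together, markers of olfactory and serotonergic neurons, 8.58 to 11.3 and 9.67 to 31.6. The part of these cell types in the protocadherin results was not tested. In bulk RNA, a change in the number of cells of a type and a change in RNA per cell cannot be told apart, nor can a few cells with 1 isoform each and many cells with low levels of all.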

How the data were processed

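RNA-seq of 6 libraries was analysed. The deposited signal is a gene's read count divided by 1 factor per library: 100% of values were whole reads at a tolerance of 0.01. The authors also deposited a p-value per gene, whose test is not stated. By it, 3 alpha, 6 beta and 6 gamma members are under 0.05 in the authors' deposited table. The share of all genes under 0.05 by that p-value is not given here, so these counts have no background. Per the submitters' processing notes the build is mm10, and the tools, listed without roles, are StringTie 1.3.4d, HISAT2 2.0.4, edgeR, DESeq2, UMI-tools and CASAVA. Counting of shared exons, strand and deduplication are not given in the sources used here.

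The scaled counts were taken as normalized values. Under R 4.3.3, log2(value + 1) was tested two-sided with limma 3.58.1 (robust eBayes with a trend) for the 21500 genes with a mean of at least 1, adjusted by Benjamini-Hochberg over all of them. Fold changes are on that scale, which understates changes of low genes. Standard errors and adjusted p-values come from this fit. edgeR 4.0.16 and DESeq2 1.42.0 on the recovered reads, another pseudocount, no filter, TMM, a replicate block, removal of a length trend and leaving out each library were alternatives. The fits were tested on simulated data.

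Exon sharing and coordinates come from GENCODE M21. The members and gene lists were chosen with earlier results of these data known. The text names every called member, the 3 most abundant of the alpha, beta, gamma A and gamma B genes, all C-type members and the called genes of the other lists, at most 4 a list; any further gene was named after its values were seen. The annotated members Pcdha4, Pcdhb1 and Pcdhga10 were not analysed here, and no sequences are given.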

Additional observations from a re-analysis of the deposited data

How the results depend on the processing

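Deviations of same-numbered libraries correlated at -0.08, 0.05 and 0.03, and those of differently numbered libraries at -0.088 to 0.068. These values showed no pairing by replicate number, but with 3 libraries a group they cannot settle it. Whether libraries were prepared in pairs is not stated. With a replicate block, 1178 genes passed instead of 1776, 1 beta member instead of 3 and 1 gamma member instead of 4, beside a background of 2.58% higher. The members that passed were Pcdhac1, Pcdhb21 and Pcdhgc5. No setting called a member lower. A pseudocount of 0.5, TMM and edgeR kept all 8 calls, and DESeq2 kept 7 (backgrounds for edgeR and DESeq2 5.46% and 6.62%). Without the filter on low values 2 alpha and 5 beta members passed, with no share of all genes given for that fit. With the length trend removed 2 alpha members passed (background 5.59%) and the beta median was 0.35. limma without trend and robust called 32 genes in all and 0 alpha, 0 beta and 0 gamma members (background 0.0837%); the cause was not tested. Leaving out 1 library at a time gave 497 to 2794 called genes, 0 to 3 alpha, 0 to 6 beta and 0 to 6 gamma members, and medians of 0.22 to 0.87, 0.21 to 0.35 and 0.22 to 0.64 for alpha, beta and gamma. The log2 fold change of Pcdhb20, near 0, turned to -0.0025 under TMM, to -0.034 without shControl 2, -0.026 without shControl 3 and -0.026 without shMina53 3 (range without 1 library -0.034 to 0.087). Without shControl 3 Pcdhgb6 turned to -0.23 (range -0.23 to 0.64) and Pcdhgc3 to -0.014 (range -0.014 to 0.39). Own exon bases alone raised the mean summed level per kilobase over all libraries from 81.4 to 165.6 for alpha and from 1138 to 1941 for gamma, by construction of the shorter length. Most alternate alpha isoforms had few reads, which limits what can be detected for them.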
